A study of Mus musculus with 6 samples.

Results

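Integrin chain genes were followed in lung group 2 innate lymphoid cells (ILC2s) by RNA sequencing, and 10 such genes, Itga1, Itga4, Itgae, Itgal, Itgav, Itgax, Itgb1, Itgb2, Itgb3 and Itgb7, were taken by symbol from the 16588 genes of the deposited table. Both groups were lung ILC2s from mice given 0.5 µg of recombinant mouse IL-33 through the nose on 3 days, isolated on day 4 and kept in culture for 18 h after sorting. The 3 wild-type (WT) libraries came from C57BL/6 mice and the other 3 from mice whose genotype label reads Cnr2 KO, Cnr2 being the gene of the cannabinoid receptor CB2. The labels give no age or sex, do not say how the allele was made, and do not say whether replicates are separate animals or cultures. P-values therefore set group differences only against the spread between these libraries, which may be technical variation. The 3 libraries with the Cnr2 KO label are called KO-labelled, because their Cnr2 transcripts went against the label.

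Integrins are cell-surface adhesion receptors made of 1 alpha and 1 beta chain, and the pair decides the ligand. In lymphocytes LFA-1, the product of Itgal and Itgb2, binds the ICAM proteins of other cells, whereas Itga4 pairs with Itgb1 to bind VCAM-1 and with Itgb7 to bind MAdCAM-1 of gut vessels. Itgae pairs with Itgb7 to bind E-cadherin of epithelium, Itgav pairs with Itgb1, Itgb3 and other beta chains to bind vitronectin and latent TGF-beta, Itga1 with Itgb1 forms a collagen receptor, and Itgax with Itgb2 forms CD11c/CD18 of dendritic cells and macrophages. Signals from the cell interior, carried by the small GTPase Rap1 to talin and kindlin, switch the receptors to their binding shape.

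RefSeq promoter windows (GRCm38.p6) were at hand for 6 of the 10 genes. The 250 bases before the start are shown for 4 of them, because Itgb7, Itgb1 and Itgav were higher in Cnr2 KO-labelled libraries while Itga4 was not. They lie at chr15:102231936-102232185 on the minus strand for Itgb7, and on the plus strand at chr8:128685404-128685653 for Itgb1, chr2:83724147-83724396 for Itgav and chr2:79255176-79255425 for Itga4. The starts are those of RefSeq, and the Itgb7 window reaches a few bases into the gene span given for Itgb7 below. Capitals mark any match to 8 motifs searched on both strands.
Itgb7: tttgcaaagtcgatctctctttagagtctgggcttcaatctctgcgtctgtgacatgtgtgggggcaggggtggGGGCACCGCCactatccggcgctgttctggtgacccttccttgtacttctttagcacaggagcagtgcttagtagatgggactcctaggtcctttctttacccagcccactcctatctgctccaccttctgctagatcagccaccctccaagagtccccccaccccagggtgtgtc
Itgb1: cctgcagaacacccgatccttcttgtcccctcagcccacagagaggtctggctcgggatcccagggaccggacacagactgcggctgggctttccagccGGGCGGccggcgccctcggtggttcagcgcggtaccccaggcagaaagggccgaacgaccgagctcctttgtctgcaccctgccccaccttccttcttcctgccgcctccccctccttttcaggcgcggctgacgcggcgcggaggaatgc
Itgav: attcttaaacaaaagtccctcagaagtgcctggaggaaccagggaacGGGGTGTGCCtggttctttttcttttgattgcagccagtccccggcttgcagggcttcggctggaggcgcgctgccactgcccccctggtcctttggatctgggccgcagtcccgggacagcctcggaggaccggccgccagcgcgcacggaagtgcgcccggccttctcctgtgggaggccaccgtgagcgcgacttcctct
Itga4: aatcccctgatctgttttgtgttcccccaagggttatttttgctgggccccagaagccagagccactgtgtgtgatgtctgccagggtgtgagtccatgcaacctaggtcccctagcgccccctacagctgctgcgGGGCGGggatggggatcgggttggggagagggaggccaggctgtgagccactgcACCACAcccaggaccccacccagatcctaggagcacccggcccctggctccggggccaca
The motifs were AGATAA for GATA factors, TGTGGT for RUNX factors, TGANTCA for AP-1, GGG and CC around any 5 bases for NF-kB, TTCNNNGAA for STAT factors, GAAA repeated after any 2 bases for interferon response elements, GGGCGG for SP factors and TATAAA for the TATA box, with N for any base. Itgb7 held a match to the NF-kB letters, which 45.8% of 32851 windows of the same length hold, and Itgav held 1 as well. Itgb1 and Itga4 each held the SP letters, found in 32.7% of windows, and Itga4 also held the RUNX letters, found in 14.0%. The Itgb1 and Itgav windows were rich in CG dinucleotides, with 21 and 18, against 5 in Itgb7, 6 in Itga4 and a median of 6 over all windows. None of the 8 motifs was found in all 3 windows of the genes that were higher. A match to these letters is a description of the sequence and no measured binding.

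The libraries held between 17867541 and 19399819 counts, apart from WT replicate 2, which held 129617689. Transcripts of Cnr2 were present in every library and were 2.01-fold higher in the KO-labelled libraries (3.69 ± 0.449 against 7.49 ± 0.0627 CPM, edgeR adjusted p = 2.11e-05), against the label, and the table cannot show a deleted exon. All 12 listed ILC2 markers were counted in every library and summed to 13770 to 14290 CPM (depth-scaled counts) in WT and 12510 to 13590 CPM in Cnr2 KO-labelled libraries. These sums are mostly Il5 and Il2ra, and single markers differed: 8 of the 12 were called higher and 3 lower. Gata3, the factor that specifies ILC2s, was at 288 and 1073 CPM and Rora at 121 and 272 CPM, while Il2ra was at 5451 and 2680 CPM, Il13 at 150.5 and 79.8 CPM and Areg at 243 and 140 CPM. The surface marker Thy1 was the lowest of them, at 0.920 and 3.69 CPM. In bulk RNA of this kind, fewer cells that express a gene and less of its RNA per cell cannot be told apart.

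Of the 10 genes, 7 were counted well enough to be tested, and 6 of these were higher in Cnr2 KO-labelled libraries. All 4 beta chains were among them, led by Itgb3 (5.24-fold) and Itgb7 (3.61-fold), whereas among alpha chains Itgal was 2.09-fold and Itgav 1.36-fold higher. Itga4 alone was called lower, by 1.12-fold, and that call rested on single libraries. Of all 12150 genes tested, 33.1% were called higher and 33.2% lower, 66.3% in all, at an adjusted p under 0.05 (edgeR quasi-likelihood test, Benjamini-Hochberg adjustment over all tested genes), so a call by itself is common in this comparison. Changes of at least 2-fold upward were rarer, at 8.89% of tested genes, and were seen in Itgb3, Itgb7 and Itgal, while 7.47% were at least 2-fold lower, none of the members among them. The median log2 fold change of the 7 was 0.93, beside 0.01 over all tested genes. The members were chosen with earlier results of these data known, so this median does not stand for integrin chains in general. For the 8 other integrin chains tested the median was 0.07. Itga1, Itgae and Itgax were near the counting floor in both groups and were not tested.

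**Figure D1:**
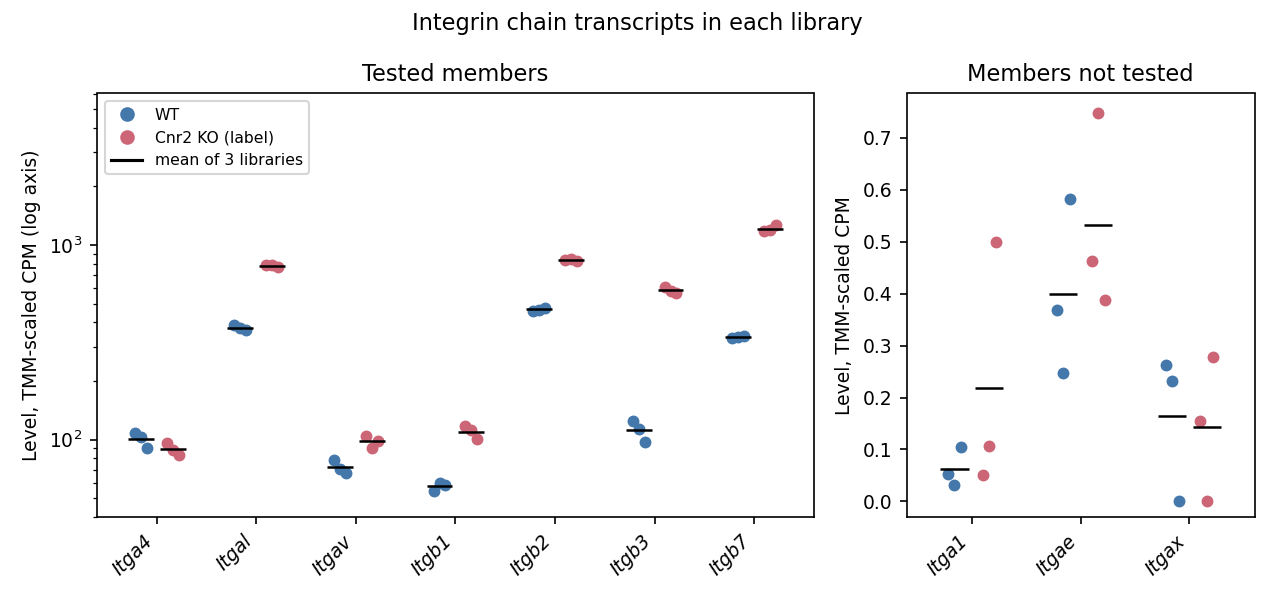
Level of each integrin chain gene in each library, in TMM-scaled counts (CPM), on a log axis for the 7 tested genes (left) and on a linear axis for the 3 not tested (right). Points are libraries, 3 per group, and bars are group means. The groups are apart for all tested genes but Itga4, and overlap for Itga1, Itgae and Itgax.

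Itgb7 (ENSMUSG00000001281.10, chromosome 15, 102215995 to 102231944, GRCm38), the beta chain that guides lymphocytes to the gut and holds them at epithelium, had the smallest adjusted p of the 10 genes. Its level was 333, 335 and 341 CPM in WT replicates 1, 2 and 3, and 1178, 1198 and 1266 CPM in Cnr2 KO-labelled libraries. The groups were far apart beside a spread of a few percent within each, at 336 ± 4.14 CPM in WT, against 1214 ± 46.2 CPM in the other group (SD, n = 3 each). The log2 fold change was 1.85 ± 0.04 (SE; edgeR adjusted p = 9.26e-17), and 5.54% of tested genes had a larger absolute change.

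Of the alpha partners of Itgb7, Itga4 did not rise with it, and Itgae was too low to be tested. Itga4 (chromosome 2, 79255426 to 79333123) stood at 108, 103 and 90.9 CPM in WT and at 96.3, 88.5 and 83.7 CPM in Cnr2 KO-labelled libraries. WT replicate 3 lay below the highest library of the other group, so the groups overlapped. The log2 fold change was -0.17 ± 0.07 (SE; edgeR adjusted p = 0.0331), and it was -0.37 with an offset for GC content and gene length (edgeR adjusted p = 1.93e-05). The call was also kept without WT replicate 3 (0.00406) and without KO-labelled replicate 1 (0.0122), but not in the following settings. Leaving out WT replicate 1 gave an edgeR adjusted p of 0.125, and leaving out WT replicate 2 gave 0.0871. Leaving out KO-labelled replicate 2 or 3 gave 0.0951 or 0.159, and thinning WT replicate 2 to the depth of the others gave 0.061. Itgae (chromosome 11, 73090583 to 73147446), the alpha chain known as CD103 of epithelial lymphocytes, had 7, 32 and 11 counts in WT and 9, 14 and 7 in Cnr2 KO-labelled libraries. That is 0.248 to 0.581 CPM in WT and 0.388 to 0.748 CPM in the other group, and the ranges overlapped. Itga4 overlaps Cerkl and Itgae overlaps Haspin, both on the opposite strand, and since the strand setting of the counting is not known, reads in the shared stretches are uncertain.

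The LFA-1 chains rose together. Itgb2 (ENSMUSG00000000290.13, chromosome 10, 77530252 to 77565708), the common beta chain of leukocytes, was at 459, 465 and 475 CPM in WT and at 834, 850 and 826 CPM in Cnr2 KO-labelled libraries. Every value of the latter exceeded every WT value, and the log2 fold change was 0.84 ± 0.04 (SE; edgeR adjusted p = 1.61e-12). Itgal (ENSMUSG00000030830.18, chromosome 7, 127296260 to 127335138), which encodes the alpha chain CD11a, was at 386, 372 and 364 CPM in WT and 793, 789 and 767 CPM in the other group. This gene, too, showed no overlap, with a log2 change of 1.07 ± 0.04 (SE; edgeR adjusted p = 9.92e-14). By contrast, Itgax (chromosome 7, 128129547 to 128150657), the CD11c gene, had 5, 30 and 0 counts in WT and 3, 0 and 5 in Cnr2 KO-labelled libraries, at most 0.277 CPM in any library. Itgal and Itgax lie on the same chromosome, and no annotated gene overlaps either of them.

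Itgb3 changed most of the 10 genes. Itgb3 (ENSMUSG00000020689.4, chromosome 11, 104608000 to 104670476) encodes the beta chain of the vitronectin receptor and, with the alpha chain of Itga2b, of the platelet fibrinogen receptor. Its level was 124, 113 and 97.3 CPM in WT and 611, 578 and 567 CPM in Cnr2 KO-labelled libraries. The lowest KO-labelled library was far above the highest WT library, and the log2 fold change was 2.39 ± 0.07 (SE; edgeR adjusted p = 5.91e-16), larger in absolute size than for all but 3.25% of tested genes. The platelet partner Itga2b had 0, 26 and 0 counts in WT and 4, 3 and 2 in the other group. Of 7 platelet and megakaryocyte markers 3 were in the table, Pf4, Ppbp and Itga2b. They summed to 0.105 to 0.565 CPM in WT and 0.514 to 1.16 CPM in Cnr2 KO-labelled libraries. The part of such cells in the Itgb3 values was not tested. Itgav (chromosome 2, 83724397 to 83806916), the remaining partner, was at 78.5, 70.2 and 67.7 CPM in WT and at 105, 91.1 and 97.8 CPM in Cnr2 KO-labelled libraries. These values did not overlap, with a log2 change of 0.44 ± 0.07 (SE; edgeR adjusted p = 9.07e-06). Itgav overlaps the opposite-strand loci Gm13684 and Dnmt3l-ps1.

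Itgb1 (ENSMUSG00000025809.15, chromosome 8, 128685654 to 128733200), the beta chain with the most alpha partners, was at 54.4, 60.0 and 58.1 CPM in WT and at 117, 112 and 100 CPM in Cnr2 KO-labelled libraries. All 3 libraries of the latter lay above all WT libraries, and the log2 fold change was 0.93 ± 0.06 (SE; edgeR adjusted p = 2.57e-10). Itga1 (chromosome 13, 114953096 to 115101964), the collagen receptor chain, had 1, 4 and 2 counts in WT and 1, 2 and 9 in the other group. Library 3 of the latter holds most of those counts, and Pelo, a gene inside Itga1, and 2 further loci overlap it. In all, 6 of the 7 tested genes had no overlap between groups, all 6 of them higher in the KO-labelled libraries, beside 68.9% of all tested genes (34.1% higher and 34.8% lower). No member lies on chromosome 4, which carries Cnr2.

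The levels of different genes were compared per kilobase of annotated exon (CPM per kb). In WT the order was Itgb2 (152.8 ± 2.63), Itgb7 (121.5 ± 1.49), Itgal (56.9 ± 1.68), Itgb3 (18.9 ± 2.28), Itgb1 (14.1 ± 0.695), Itga4 (7.20 ± 0.633) and Itgav (6.71 ± 0.525). Neighbours in this order did not overlap between libraries, except Itga4 and Itgav. In Cnr2 KO-labelled libraries Itgb7 led at 438.4 ± 16.7 CPM per kb, ahead of Itgb2 at 274.2 ± 4.02, Itgal at 119.2 ± 2.15 and Itgb3 at 99.1 ± 3.92. Itgb1 followed at 26.9 ± 2.09, Itgav at 9.11 ± 0.638 and Itga4 at 6.40 ± 0.456, and no neighbours among these 7 overlapped. Itgb7 and Itgb2 thus stood in opposite order in the 2 groups. The means of Itga4 and Itgav did so too, but their WT order is not firm. These 2 genes overlapped in WT, and with the longest transcript as length their WT means were 10.3 and 10.23. Only 0.376% of the 16233 genes with an exon length had a higher level per kb than Itgb7 in Cnr2 KO-labelled libraries, and 2.53% in WT. Itgae, Itgax and Itga1 were last in both groups, at 0.116 CPM per kb or less.

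Beta chain transcripts outnumbered alpha chain transcripts per length in both groups. The 7 beta chain genes of the table summed to 313.2 ± 2.52 CPM per kb in WT and 840.3 ± 9.12 in Cnr2 KO-labelled libraries, and the 16 alpha chain genes to 80.3 ± 2.60 and 146.6 ± 2.79. Of the beta sum, Itgb2 made up 48.8 ± 0.457% in WT and 32.6 ± 0.714% in the other group, and Itgb7 made up 38.8 ± 0.207% and 52.2 ± 1.42%. The share of Itgb3 was 6.04 ± 0.775% and 11.8 ± 0.584%, whereas that of Itgb1 was 4.50 ± 0.202% and 3.20 ± 0.282% although its level rose. Among alpha chains Itgal held 70.9 ± 0.400% in WT and 81.3 ± 0.223% in Cnr2 KO-labelled libraries. Itga4 held 8.95 ± 0.554% and 4.36 ± 0.234%, and Itgav 8.35 ± 0.378% and 6.21 ± 0.412%. Shares add up to a fixed total, so a larger share of a chain lowers the shares of the rest.

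**Figure D2:**
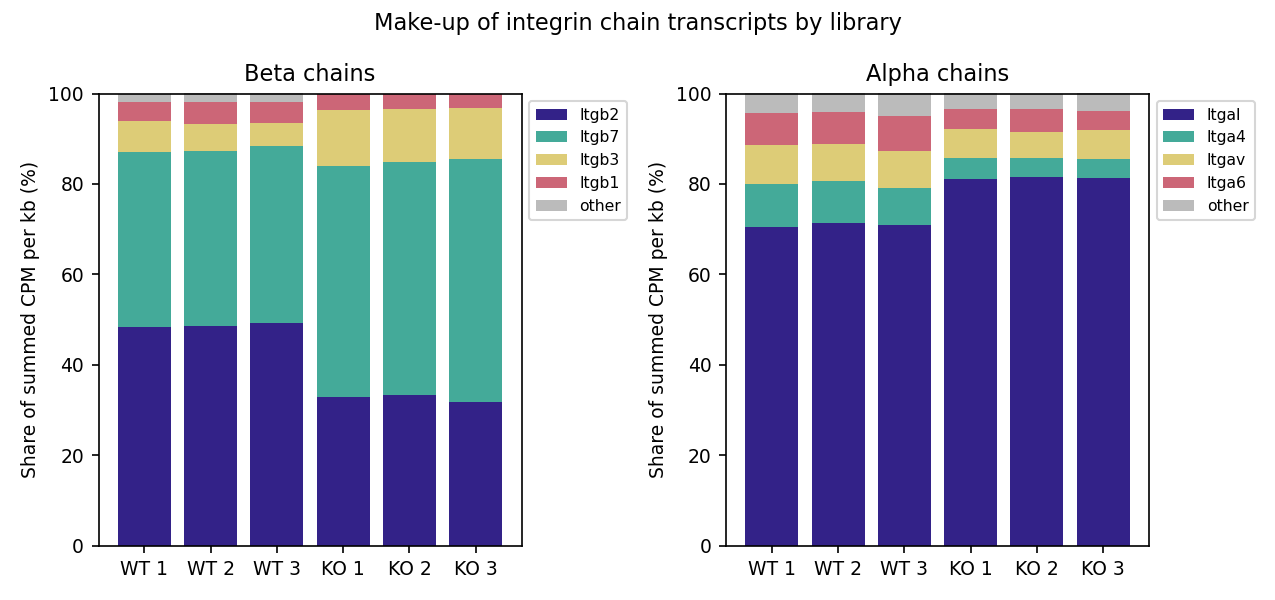
Share (%) of the summed CPM per kb of all beta chain genes (left) and all alpha chain genes (right) held by each chain, as 1 stacked bar per library. WT 1 to 3 are the WT libraries and KO 1 to 3 the Cnr2 KO-labelled libraries, and Itgb7 exceeds Itgb2 in all of the latter and in none of the former.

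Because a receptor needs both chains, the ratio of alpha to beta transcripts per length was set out for 8 textbook pairs, without a test. For Itga4 over Itgb7 it was 0.0644, 0.0607 and 0.0528 in WT and 0.0162, 0.0146 and 0.0131 in Cnr2 KO-labelled libraries. The Itga4 transcript was thus far below that of Itgb7 in every library, and further below in the latter. For Itgav over Itgb3 the ratio was 0.357 ± 0.0219 in WT and 0.0919 ± 0.00456 in the other group, and for Itga4 over Itgb1 0.512 ± 0.0632 and 0.238 ± 0.00691. For Itgav over Itgb1 it was 0.478 ± 0.0602 and 0.340 ± 0.0310. LFA-1 differed in direction, with Itgal over Itgb2 at 0.373 ± 0.0172 in WT and 0.435 ± 0.00631 in Cnr2 KO-labelled libraries. These 5 ratios did not overlap between groups, nor did that of Itgae over Itgb7, at 0.000667, 0.000448 and 0.00103 in WT and 0.000237, 0.000377 and 0.000185 in the other group, where Itgae rests on at most 32 counts per library. Ratios with Itga1 or Itgax overlapped.

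**Figure D3:**
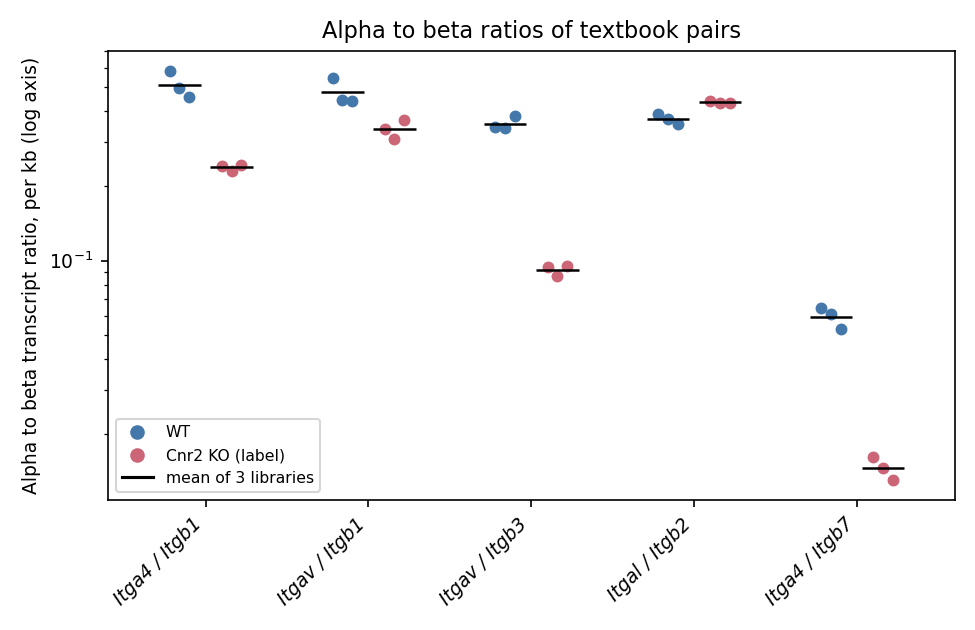
Ratio of alpha chain to beta chain transcripts per kb of exon (log axis) for the 5 pairs whose chains were both tested, with 1 point per library and bars for group means. Itgal over Itgb2 is higher in the 3 Cnr2 KO-labelled libraries, and the other 4 ratios are lower there.

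Of 17 other alpha and beta chain genes listed, 13 were in the table and 8 were tested, of which 3 were higher, 2 lower and 3 not called, with a median log2 fold change of 0.07. With 33.1% of all tested genes higher and 33.2% lower, these counts are near the background. Itga2, a collagen receptor chain that pairs with Itgb1, measured 2.75 ± 0.493 CPM in WT, against 13.8 ± 0.759 CPM in Cnr2 KO-labelled libraries (log2 fold change 2.33, edgeR adjusted p = 1.07e-10). Itga6, a laminin receptor chain, was 1.17-fold higher (52.7 ± 2.33 and 61.7 ± 5.71 CPM, edgeR adjusted p = 8.46e-03). That call was lost without WT replicate 2 (adjusted p = 0.0507), without KO-labelled replicate 2 (0.0838) and with the GC and length offset (0.224). Itga8 had 18, 16 and 1 counts in WT and 28, 39 and 9 in the other group, with overlapping levels (edgeR adjusted p = 7.66e-03). Its adjusted p was 0.0972 without WT replicate 2 and 0.0818 without KO-labelled replicate 2.

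Itgb8 and Itgb5, the tested beta chains called lower, are further partners of Itgav. Itgb8, which with Itgav activates latent TGF-beta, had 68, 354 and 64 counts in WT and 2, 0 and 1 in Cnr2 KO-labelled libraries, a ratio of pooled counts of 54.5 at equal depth, with a 95% counting interval of 18.5 to 265.2. Itgb5, a vitronectin receptor chain, was at 18.3, 21.1 and 20.7 CPM in WT and 5.80, 6.09 and 6.10 CPM in Cnr2 KO-labelled libraries, 3.36-fold lower (edgeR adjusted p = 8.40e-11). So of the beta partners of Itgav in the table, Itgb1 and Itgb3 rose while Itgb5 and Itgb8 fell. Itga3 (8.64 ± 1.51 and 7.58 ± 1.65 CPM, log2 fold change -0.17, SE 0.17), Itga5 (6.59 ± 0.742 and 6.07 ± 0.726 CPM, log2 fold change -0.09, SE 0.16) and Itga7 (0.831 ± 0.290 and 0.985 ± 0.349 CPM, log2 fold change 0.34, SE 0.41) were not called. Itgb4 had 3, 26 and 6 counts in WT and 0 in each of the KO-labelled libraries, and it did not pass the filter. Without the filter it was called lower (edgeR adjusted p = 7.93e-03), which made 3 other chains lower, as did DESeq2. Itga2b, Itga9, Itga10 and Itgam were not tested either.

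**Figure D4:**
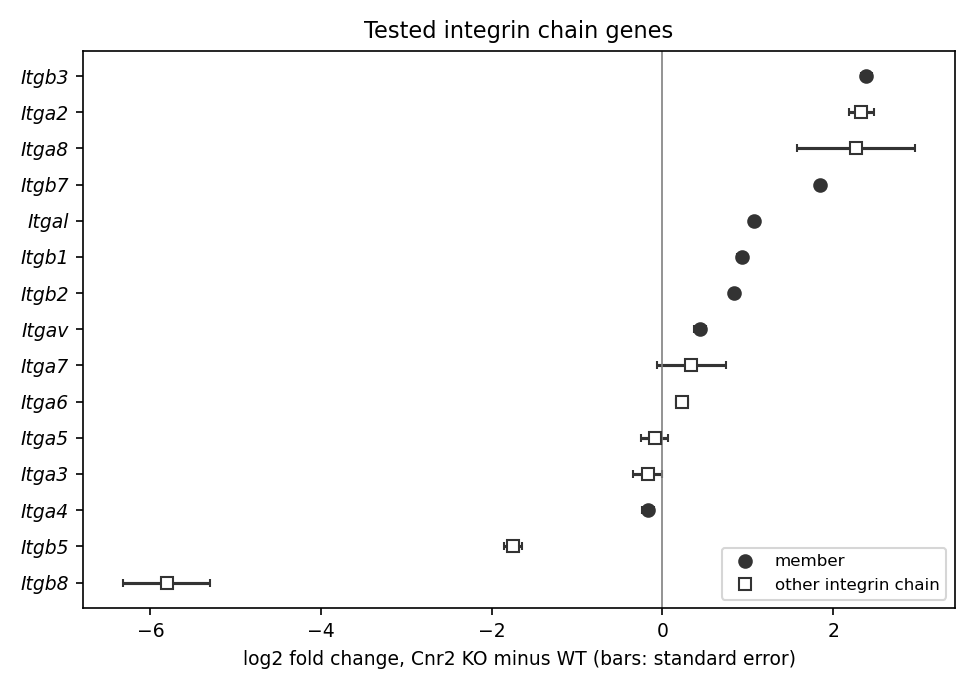
Log2 fold change (Cnr2 KO-labelled minus WT) with its standard error for the 15 tested integrin chain genes, 7 members (filled circles) and 8 others (open squares). Itgb3 is at 2.39 and Itgb8 at -5.81.

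The list of talin, kindlin, Rap1 and their regulators holds genes that restrain integrins as well as genes that activate them. In it 17 were called higher and 3 lower, beside 33.1% and 33.2% of all genes tested. These counts therefore give no direction of integrin activation. The 27 tested genes of this talin, kindlin and Rap1 list had a median log2 fold change of 0.48 beside 0.01 for all tested genes. Rasgrp1, an exchange factor for Ras GTPases, was 7.61-fold higher in Cnr2 KO-labelled libraries (31.9 ± 4.59 and 241.9 ± 15.8 CPM), and Dok2, an adaptor that binds integrin tails and restrains signalling, was 2.31-fold higher. Fermt3, which encodes the leukocyte kindlin, was 1.18-fold lower (809 ± 15.7 and 685 ± 15.9 CPM), and Rapgef1, an exchange factor for Rap1, 1.23-fold lower. Rapgef2 and Rapgef6, of the same gene family and list, went the other way, at 1.73-fold and 1.85-fold higher. Adjusted p-values of all these genes were 1.04e-04 or lower in edgeR. In the list of focal adhesion adaptors and signalling proteins 24 of 34 rose and 5 fell, beside the same background of 33.1% and 33.2%, the median log2 fold change being 0.60. Tns1, which encodes tensin 1, was 3.72-fold and Lyn, a Src family kinase, 3.28-fold higher, whereas Vav2 was 1.32-fold and Git1, a paxillin-binding adaptor, 1.23-fold lower (edgeR adjusted p = 4.90e-04 or lower for each).

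Icam2 and Icam1, which encode ligands of LFA-1, fell while the LFA-1 chains rose. Icam2 measured 59.1 ± 2.17 CPM in WT, against 27.8 ± 1.49 CPM in Cnr2 KO-labelled libraries, 2.12-fold lower, and Icam1 was at 80.4 ± 2.69 and 45.6 ± 5.36 CPM, 1.76-fold lower (edgeR adjusted p = 1.08e-10 and 1.44e-08). Spp1, which encodes osteopontin, and Thbs1, which encodes thrombospondin 1, both ligands of Itgav receptors, were 8.40-fold and 6.29-fold higher, from 0.555 ± 0.207 to 5.02 ± 0.984 CPM and from 2.67 ± 0.209 to 16.4 ± 2.65 CPM (edgeR adjusted p = 4.03e-08 and 2.04e-11). Of the 20 tested ligands 7 were higher, 3 lower and 10 not called, and 11 were higher without WT replicate 1. The share higher is near the 33.1% of all tested genes, and 33.2% of those were lower.

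Of 24 tested genes of integrin folding, recycling and membrane partners 7 were higher and 8 lower, near the background of 33.1% and 33.2%, with a median log2 fold change of 0.02. Cd53, a leukocyte tetraspanin, was 2.78-fold higher and Slc3a2, the CD98 heavy chain that binds integrin beta tails, 1.73-fold higher, while Snx27, a recycling adaptor, was 1.51-fold and Hax1 1.60-fold lower. Of 12 tested genes of other leukocyte adhesion receptors 8 were higher and 2 lower, beside that background (median 0.68). Cd226, an activating receptor, rose 6.10-fold and Epcam, also a marker of epithelial cells, 4.24-fold. Pecam1 fell 2.75-fold and Alcam, a ligand of CD6, 1.69-fold. All 8 of these genes had an edgeR adjusted p of 1.09e-04 or lower.

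**Figure D5:**
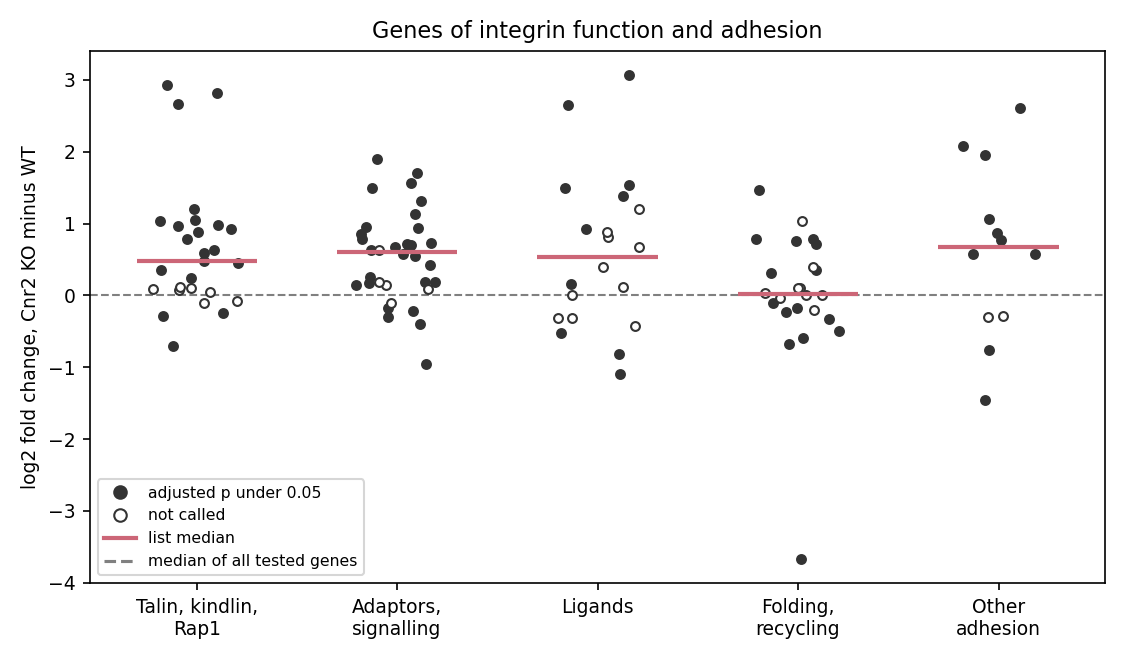
Log2 fold change (Cnr2 KO-labelled minus WT) of each tested gene in 5 lists of integrin function and adhesion, filled where the edgeR adjusted p was under 0.05 and open where it was not. Pink bars are list medians and the dashed line the median of all tested genes, which is 0.01, and the folding and recycling list is the list with its median, 0.02, nearest that line.

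Itgb2, Itgal and Itgax are also expressed by myeloid cells. Of 10 macrophage markers 2 were in the table, Cd68 and Adgre1, and they summed to 0.998 to 1.66 CPM in WT and 3.24 to 4.99 CPM in Cnr2 KO-labelled libraries. Adgre1 had no counts in WT and 3, 19 and 16 in the other group. Of 9 dendritic cell markers 7 were in the table and summed to 81.9 to 83.3 and 126.4 to 129.1 CPM, mostly Irf8, a factor that other leukocytes also use, so this list was at levels like those of Itgav and Itgb1. Irf8, at 50.7 and 86.4 CPM, and Xcr1, a chemokine receptor of cross-presenting dendritic cells, at 10.3 and 23.3 CPM, were called higher in the KO-labelled libraries. H2-Ab1, at 19.4 and 17.4 CPM, was not called. Batf3 was called lower, from 1.02 CPM in WT to 0 counts in each KO-labelled library, and Zbtb46 and Flt3 were at 0.646 and 0.0962 CPM in WT and 0.247 and 0.0520 CPM in the other group. Itgam was at 0.2205 and 0.348 CPM. T cell markers, 4 of 8 in the table, summed to 7.25 to 7.66 and 18.5 to 22.1 CPM, mostly Cd3g. Of these, Cd3g (4.65 and 17.25 CPM) and Cd3e (1.27 and 2.22 CPM) were called higher in the KO-labelled libraries. Trac was called lower (1.48 and 0.464 CPM), and Cd3d was not tested. Neutrophil markers, 2 of 6 in the table, summed to at most 0.943 CPM in any library. Of 5 epithelial cell markers 2 were in the table, Epcam and Krt8. Epcam, at 10.95 and 46.4 CPM, was called higher in the KO-labelled libraries. Krt8 had 164, 247 and 0 counts in WT and 0 in each KO-labelled library, and was not tested. Of 4 B cell markers only Cd79b was in the table, called higher at 16.7 and 25.6 CPM. The part of such cells in the integrin chain values was not tested.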

How the data were processed

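RNA of 6 lung ILC2 libraries was sequenced; cDNA came from 10 pg of RNA by an ultra-low-input method, per the labels. The authors deposited expected counts per gene (estimated, 59.08 to 81.23% within 0.02 of a whole number). Partek 10.0, STAR 2.7.8, DESeq2 and mm10 are named, per the submitters' processing notes; how reads were counted, and on which strand, is not stated there. Adipose tissue stands in the series title, but the samples are labelled lung.

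Counts were rounded and tested with edgeR 4.0.16 (R 4.3.3): TMM scaling, filterByExpr (minimum count 10, total 15) and a quasi-likelihood fit with genotype as the only term, over 12150 genes, with 4438 left out; adjusted p under 0.05 was a call. Standard errors (SE) are the absolute log2 fold change over the square root of F. The test was tried on counts simulated from the kind of model it assumes. That trial cannot show how the test performs on these libraries. CPM is TMM-scaled, ± is SD over 3 libraries. Exon lengths are from GENCODE M21 (GRCm38; 16233 genes matched). Counting intervals are exact (Clopper-Pearson) and cover counting error only. Within groups, chi-square per gene between libraries was 4.14 to 8.95, above sampling noise, and each library counted as 1 replicate.

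The members and lists were chosen with earlier results of these data known. Named were all members, every tested integrin chain, Cnr2, and per list and direction the 2 called genes of at least 5 CPM with the largest change. Rapgef2 and Rapgef6 were named beside Rapgef1 outside this rule. Alternatives were DESeq2 size factors, no filter, a stricter filter, a replicate block, DESeq2 1.42.0, limma-voom (limma 3.58.1), each library left out in turn, thinning of WT replicate 2, a GC and length offset, a threshold of 0.01 and, for levels, the longest transcript.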

Additional observations from a re-analysis of the deposited data

How the results depend on the processing

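The calls of Itgal, Itgav, Itgb1, Itgb2, Itgb3 and Itgb7 kept their direction and stayed under the threshold in all 15 alternatives, with log2 fold changes of 0.99 to 1.08, 0.29 to 0.49, 0.88 to 0.99, 0.82 to 0.89, 2.30 to 2.46 and 1.82 to 1.91. Itga4 was lower in each, at -0.37 to -0.12, but its call was lost in 6, so that the number of members called lower was 0 with WT replicate 2 thinned and at a threshold of 0.01. Leaving out a library gave 0 to 1 members lower, 1 to 3 other integrin chains higher (1 without WT replicate 2 or without KO-labelled replicate 2) and 6 to 11 ligands higher. Of 240 counts of calls under the alternatives, 231 stayed within 1.5 times. The replicate block gave 6 members higher and 1 lower, as without it, with Itga4 at an adjusted p of 6.28e-03. Libraries with the same number correlated at 0.066, 0.006 and 0.043 in their deviations from group means, so the numbers were not taken to pair them. With the longest transcript as length, levels per kb rose, to 10.3 for Itga4 in WT, and Itgav over Itgb3 was 0.533 in WT and 0.137 in Cnr2 KO-labelled libraries. With this length 10 pair ratios, taken per group, moved by at least their SD and 6 did not. Of the members' levels per kb, 11 moved that far and 29 did not, over this length and DESeq2 size factors together. Depth limits Itga1, Itgae and Itgax, for which no difference was detectable: without the filter their adjusted p-values were 0.162, 0.553 and 0.815 in edgeR.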

Other observations

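Genes that hold and release latent TGF-beta, the cargo of several Itgav receptors, were looked at after their values were seen. Nrros, which tethers latent TGF-beta on myeloid cells, measured 128 ± 8.51 CPM in WT, against 373 ± 13.9 CPM in Cnr2 KO-labelled libraries (2.92-fold, edgeR adjusted p = 1.23e-14). Tgfb1 itself was 1.12-fold higher (333.5 ± 14.5 and 373 ± 14.1 CPM, adjusted p = 5.61e-03) and Tgfb3 was at 25.8 ± 1.37 and 25.9 ± 1.44 CPM (adjusted p = 0.988). Ltbp1, which encodes a latent TGF-beta binding protein, was 1.43-fold lower (5.87 ± 0.696 and 4.08 ± 1.53 CPM, adjusted p = 0.0481), close to the threshold.

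Other genes outside the naming rule were also picked after their values were seen. Lama5, a laminin chain, was 2.60-fold higher (89.0 ± 5.46 and 231.3 ± 16.3 CPM), Nedd9, a docking protein downstream of integrins, 2.96-fold, and Tln1, the talin of lymphocytes, 2.03-fold (516 ± 24.5 and 1050 ± 8.80 CPM). Dab2, an endocytic adaptor for beta1 integrins, measured 3.29 ± 1.24 CPM in WT, against 0.253 ± 0.143 CPM in Cnr2 KO-labelled libraries (edgeR adjusted p = 4.29e-07). L1cam, an adhesion molecule that binds integrins, was 3.88-fold higher.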
